A study of Homo sapiens with 4 samples.

Results

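The unedited H1299 line was read from 2 wild-type RNA-seq libraries of a series of 4. The members were chosen by the genotype label, WT, and not by any measured value. H1299 is an established human cell line grown from a lymph node metastasis of a non-small cell lung carcinoma. The series set them beside H1299 cells edited with CRISPR/Cas9 to knock out TTC28, a tetratricopeptide repeat gene. Only the wild-type libraries are used here. Per the labels they were untreated, and they were grown in RPMI medium with fetal bovine serum and penicillin/streptomycin. The labels name neither a clone nor separate cultures for the libraries, so the spread between them may be technical. They also do not say whether the wild-type cells went through a mock edit. Levels are given as FPKM, the authors' counts scaled by gene length and library size. The length is that of all annotated exonic bases, so the order of 2 genes depends on their lengths as well as their counts. A gene is called detected where its mean over both libraries was at least 1 FPKM. On the TPM scale, in which the levels of each library sum to the same total, 1 FPKM corresponded to 3.33 TPM.

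Lung carcinoma cells can keep the programme of the epithelium they came from or lose it. Alveolar type II cells are known by surfactant proteins and by the transcription factor NKX2-1, basal and squamous cells by TP63 and keratins, and neuroendocrine cells by factors such as NEUROD1 and by secretory granule proteins. Epithelial sheets are held together by E-cadherin and claudins, whereas mesenchymal cells carry vimentin, N-cadherin and the ZEB and TWIST factors. Promoters of broadly used genes lie as a rule in CpG islands, and many tissue-restricted genes have CpG-poor promoters.

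The libraries held 25808423 counts in replicate 1 and 27043491 in replicate 2. TTC28, the gene the series targeted, was expressed in both, at 4.88 and 5.44 FPKM (1617 and 1875 counts). Its rank among protein-coding genes was 6586. The 24 proliferation genes were all detected, beside 52.9% of all protein-coding genes. Their median was 35.6 FPKM, and the lowest of them stood at 1.32 FPKM.

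Of 58735 genes in the table, 12616 (21.5%) were detected and 30345 (51.7%) had 0 counts in both libraries. Among 19951 protein-coding genes, 10561 (52.9%) were detected and 3853 (19.3%) were at 0 counts. The protein-coding median was 1.40 FPKM over all genes and 7.46 FPKM over those detected. A further 2881 protein-coding genes lay above 0 but under 0.1 FPKM, and 2656 lay from 0.1 to 1 FPKM. The largest class was the 6367 genes from 1 to 10 FPKM, followed by 3873 from 10 to 100 FPKM and 321 at 100 FPKM or more. The levels of protein-coding genes thus had a main peak near 10 FPKM and a long shoulder of low values below 1 FPKM. Only 19 protein-coding genes reached 1000 FPKM.

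**Figure D1:**
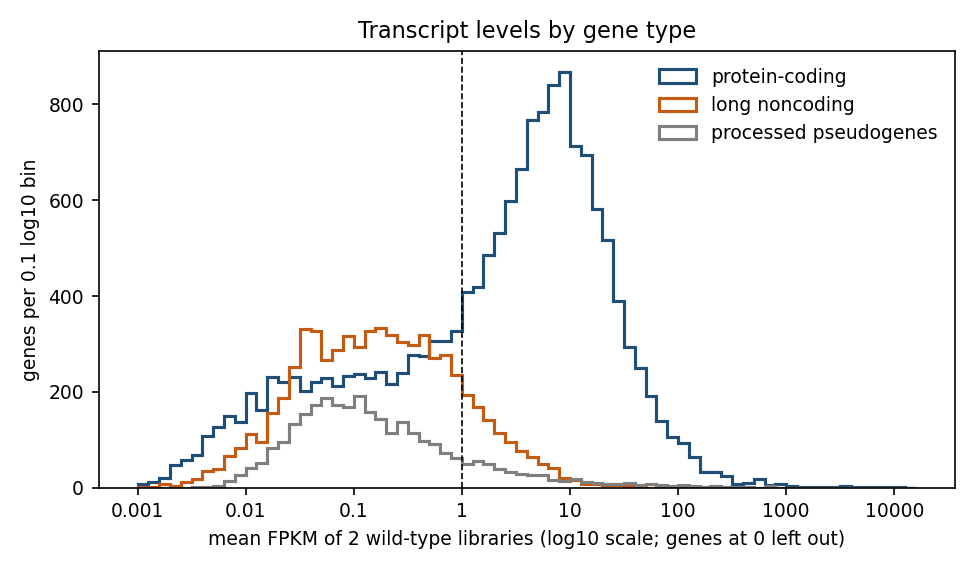
Number of genes (vertical axis) by mean FPKM of the 2 wild-type libraries (horizontal axis, log10 scale) for protein-coding genes, long noncoding genes and processed pseudogenes; genes at 0 are left out, and the dashed line marks 1 FPKM. Protein-coding genes peak to the right of the line, where 10561 of them lie, while long noncoding genes and processed pseudogenes lie mostly to its left.

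Protein-coding genes took 97.2% ± 0.077 (SD, n = 2) of the counts and 90.1% ± 0.136 of summed FPKM. Of 14992 long noncoding genes, 1026 were detected, and they took 1.21% ± 0.045 of the counts. The highest of them were snoRNA host genes, whose introns carry small nucleolar RNAs: SNHG5 stood at 176 and 166 FPKM and GAS5 at 141 and 122 FPKM. NORAD, a cytoplasmic noncoding RNA that binds Pumilio proteins, stood at 64.6 and 71.8 FPKM. Of 10674 processed pseudogenes, which are reverse-transcribed copies of messenger RNAs, 453 were detected. RPS2P5 (695 and 739 FPKM) and RPL39P3 (689 and 636 FPKM) led them. Both are near-identical to a ribosomal protein messenger, so their values are uncertain. Of 646 immunoglobulin and T cell receptor segments, 2 were detected and 626 were at 0 counts.

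The 4 most abundant RNAs were all encoded by the mitochondrial genome. MT-CO1, a subunit of cytochrome c oxidase, stood at 11207 and 10839 FPKM, and MT-CO2, of the same enzyme, at 9224 and 8877 FPKM. MT-CO3 followed at 7462 and 7091 FPKM. MT-ATP6, a subunit of the ATP synthase, stood at 5567 and 5549 FPKM. The libraries did not overlap between neighbours in this order, so the order held in each library. Of the 20 highest protein-coding genes, 10 were mitochondrial. Their values are per length, and the mitochondrial messengers are short.

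Translation led the nuclear genes. EEF1A1 (chr6:73515750-73523797), the elongation factor that brings aminoacyl-tRNA to the ribosome, stood at 3189 and 3145 FPKM. EEF2, the factor that moves the ribosome along, stood at 1583 and 1680 FPKM. Of the 20 highest nuclear genes, 11 encoded cytosolic ribosomal proteins. TMSB10, an actin-binding thymosin, stood at 2101 and 1927 FPKM, and the glycolytic enzyme GAPDH at 1521 and 1546 FPKM. HMGA1, an architectural chromatin protein of embryonic and tumour cells, was the highest transcription factor gene of the table, at 1195 and 1226 FPKM. The cytoplasmic actin ACTG1 (962 and 972 FPKM) and the iron-storage chain FTL (941 and 943 FPKM) were close to each other but did not overlap. In all, 299 genes made up 50% of summed FPKM, and the 10 highest took 18.1% of it.

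All 79 cytosolic ribosomal protein genes were detected, beside 52.9% of all protein-coding genes, and their median was 272 FPKM. A few stood far below the rest. RPS10 was at 2.19 and 1.88 FPKM and RPL36A at 3.75 and 3.39 FPKM. These were named after their values were seen. Of the exonic bases of RPS10, 39.4% are shared with other genes, chiefly the readthrough gene RPS10-NUDT3, against a median of 3.43% over the 79. Whether reads on shared bases were dropped in counting was not tested, and these levels are uncertain.

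Mesenchymal genes as a list did not stand above other genes, but a few members were very high. Of 27, 13 (48.1%) were detected, near the 52.9% of all protein-coding genes, and the list median was 0.934 FPKM. LGALS1, the carbohydrate-binding protein galectin-1, stood at 736 and 704 FPKM. VIM (chr10:17228259-17237593), the intermediate filament vimentin, stood at 316 and 300 FPKM. AXL (chr19:41219203-41261766), a receptor tyrosine kinase, stood at 208 and 224 FPKM. Each of these was separated from the next by more than the difference between the libraries.

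N-cadherin (CDH2) stood at 8.46 and 8.57 FPKM. The transcription factors TWIST1 (6.87 and 7.44 FPKM) and TWIST2 (6.59 and 7.33 FPKM) overlapped in level, and ZEB1 lay below them at 4.44 and 4.63 FPKM. ZEB2 reached only 1.09 and 1.04 FPKM, and SNAI1 0.702 and 0.915 FPKM. In counts ZEB1 (1006 and 1091) and ZEB2 (718 and 707) lay above TWIST2 (324 and 375), so this order depends on gene length. Genes of matrix-producing fibroblasts were mixed. FN1 (fibronectin) stood at 3.08 and 3.38 FPKM and COL1A1 at 0.124 and 0.224 FPKM. In counts FN1 (1399 and 1592) lay above CDH2 (1097 and 1155). Named after their values were seen, S100A4, CALD1 and ACTA2 had means of 3.02, 2.20 and 1.32 FPKM. SPARC and COL5A1 had means of 0.0859 and 0.0150 FPKM. Of the whole list, 7 members had a mean of at least 5 FPKM, and not all of them are named here. COL1A2 had 2 counts and 0 counts. The cadherin CDH11 and the surface protein THY1 had 0 counts in both libraries.

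Epithelial junction genes were largely silent. Of 24 epithelial genes, 6 (25%) were detected, beside 52.9% of all protein-coding genes, and the list median was 0.054 FPKM. CDH1 (chr16:68737225-68835548), which encodes E-cadherin, had 0 counts in replicate 1 and 1 in replicate 2. EPCAM, the epithelial adhesion molecule, had 2 and 3 counts. GRHL2 and OVOL1, transcription factors that maintain epithelial identity, and the protease PRSS8 had 0 counts. The splicing regulators ESRP1 (0.133 and 0.181 FPKM) and ESRP2 (0.103 and 0.0858 FPKM) were low.

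The exceptions were simple-epithelium keratins and some tight junction genes. KRT18 stood at 144 and 138 FPKM and its partner KRT8 at 23.7 and 24.1 FPKM. CLDN1, a claudin of tight junctions, stood at 35.5 and 36.8 FPKM and OCLN (occludin) at 4.52 and 4.89 FPKM. KRT7 (1.94 and 2.02 FPKM) and CLDN3 (1.38 and 1.64 FPKM) were just above the detection level. KRT19, often high in lung adenocarcinoma, had 1 and 4 counts. Keratin 8 and 18 transcripts were therefore present in cells with almost no E-cadherin transcript. The summed level of the epithelial list was 213 and 209 FPKM, against 1313 and 1285 FPKM for the mesenchymal list. Most of the epithelial sum was KRT18, and nearly all of the mesenchymal sum was LGALS1, VIM and AXL, so the sums compare these genes rather than the lists.

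The label gives lung as the tissue, and most of the listed markers of lung epithelium were near or at 0. Of 22 genes of the lung lineage, 6 (27.3%) were detected, beside 52.9% of all protein-coding genes, and the list median was 0.0303 FPKM. NKX2-1 (chr14:36516392-36521149), the factor that specifies lung and thyroid, had 1 and 4 counts. The surfactant proteins SFTPA1, SFTPA2, SFTPB and SFTPC, the secretoglobin SCGB3A2 and the phosphate transporter SLC34A2 all had 0 counts. For SFTPB (chr2:85657314-85668741) the upper limit that 0 counts allow, taken as 3 counts over both libraries, was 0.0137 FPKM. Such limits cover counting error only.

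The 6 detected genes of the lung list were led by SOX9, ABCA3 and GATA6. SOX9, a factor of the distal lung tip and of cartilage, stood at 26.8 and 28.8 FPKM. ABCA3, the lipid transporter of lamellar bodies, stood at 12.9 and 13.8 FPKM, and the endoderm factor GATA6 at 6.88 and 6.96 FPKM. LAMP3 (2.96 and 2.94 FPKM) and AGER (3.0 and 2.62 FPKM) overlapped, and MUC1 followed at 1.31 and 1.11 FPKM. FOXA1 (0.259 and 0.157 FPKM) and FOXA2 (0.0587 and 0.0282 FPKM), pioneer factors of lung endoderm, were not detected.

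Squamous markers were mostly silent. Of 14 squamous and basal genes, 2 (14.3%) were detected, beside 52.9% of all protein-coding genes. A further 8 had 0 counts, among them KRT5, KRT6A, KRT14, KRT17 and the desmosomal cadherin DSG3. TP63, the master factor of basal cells, stood at 0.00512 and 0.0148 FPKM. S100A2 was the highest, at 7.23 and 6.54 FPKM, followed by KRT15 at 2.04 and 2.08 FPKM.

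Of 19 neuroendocrine genes, 6 (31.6%) were detected, beside 52.9% of all protein-coding genes. UCHL1, a ubiquitin hydrolase abundant in neurons, stood at 232 and 219 FPKM. ENO2, the neuronal enolase, stood at 9.94 and 9.85 FPKM, the granins SCG2 at 8.41 and 7.90 FPKM and CHGB at 5.69 and 5.91 FPKM. The Notch ligand DLL3 stood at 4.96 and 5.17 FPKM and synaptophysin (SYP) at 0.995 and 1.08 FPKM. The transcription factor NEUROD1 stood at 0.0461 and 0.0443 FPKM, and INSM1, another, had 1 and 0 counts. GRP, CALCA and STMN2 had 0 counts. Single neuroendocrine genes were thus high while NEUROD1 and INSM1 were near 0.

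Markers of other tissues served as a check for other cells. None of 10 endothelial, 12 liver and gut or 10 muscle genes was detected, with summed levels of 1.04 and 0.985 FPKM, 0.133 and 0.138 FPKM, and 0.197 and 0.246 FPKM. Of 21 blood cell genes only EPOR, the erythropoietin receptor, was detected, at 11.9 and 12.4 FPKM; the pan-leukocyte gene PTPRC and the globins HBB and HBA2 had 0 counts. Of 12 neuronal and glial genes 4 (33.3%) were detected, led by the synaptic protein SNAP25 at 4.40 and 3.57 FPKM. Over all protein-coding genes 52.9% were detected.

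**Figure D2:**
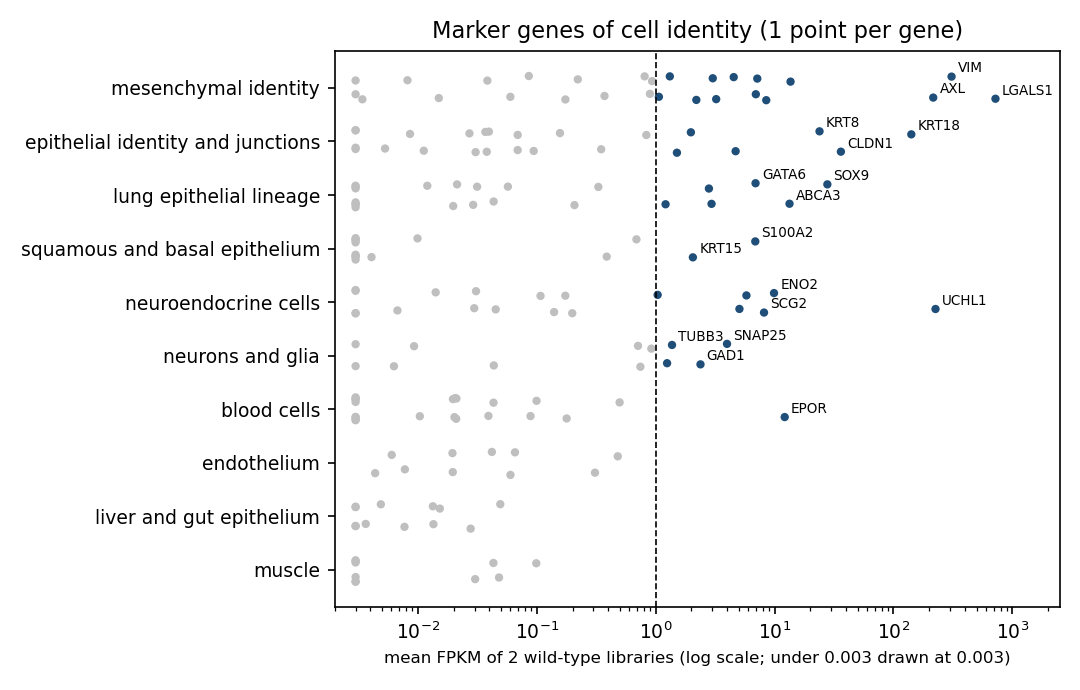
Mean FPKM of the 2 wild-type libraries (horizontal axis, log scale) for each marker gene, 1 point per gene, by marker list (vertical axis); the dashed line marks 1 FPKM, points at or above it are blue, and up to 3 of the highest are named. The mesenchymal list has 13 points at or right of the line, the epithelial and the lung list 6 each, and the endothelial, liver and gut and muscle lists none.

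Transcription factor genes were counted by family. Of 1548 transcription factor genes, 882 (57.0%) were detected. All 9 genes with an MBD domain were detected, and 10 of 11 E2F, 20 of 22 MYB and 37 of 48 bZIP genes. Among families known from development, the detected genes were 76 of 191 homeobox, 16 of 47 forkhead, 4 of 17 T-box, 3 of 16 POU and none of 9 PAX genes. These family counts carry no test.

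The highest transcription factor genes, named after their values were seen, were HMGA1, YBX1 (632 and 614 FPKM) and CNBP (338 and 327 FPKM). Several AP-1 and growth genes lay below them. FOSL1, an AP-1 subunit, stood at 230 and 222 FPKM, and JUND at 124 and 132 FPKM. MYC stood at 108 and 112 FPKM and the forkhead gene FOXD1 at 99.3 and 108 FPKM, and none of these 3 overlapped another. SREBF1, which drives lipid synthesis, stood at 95.8 and 99.6 FPKM. ATF4, the effector of the integrated stress response, stood at 205 and 194 FPKM. HMGA2, an oncofetal relative of HMGA1, stood at 66.4 and 67.7 FPKM.

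The HOX genes, which record position along the body axis, differed by cluster. Of 39 HOX genes, 21 (53.8%) were detected, near the 52.9% of all protein-coding genes: 8 of 10 in the HOXB cluster, 6 of 9 in HOXC, 4 of 11 in HOXA and 3 of 9 in HOXD. The 3 highest were all HOXB genes. HOXB7 (42.5 and 41.3 FPKM), HOXB9 (40.8 and 42.5 FPKM) and HOXB2 (37.4 and 41.4 FPKM) overlapped one another.

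Below these lay HOXC8 at 15.4 and 14 FPKM and HOXB4 at 14.6 FPKM in both libraries. HOXC10 (11.5 and 10.7 FPKM) and HOXD9 (10.0 and 8.54 FPKM) followed. HOXD9 was the highest gene of its cluster, while HOXD10 beside it stood at 0.0284 and 0.0682 FPKM. HOXB1 and HOXC11 had 0 counts. Exons of neighbouring HOX genes overlap, and 5 of the 39 share at least 50% of their exonic bases with another gene, so their levels are uncertain.

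**Figure D3:**
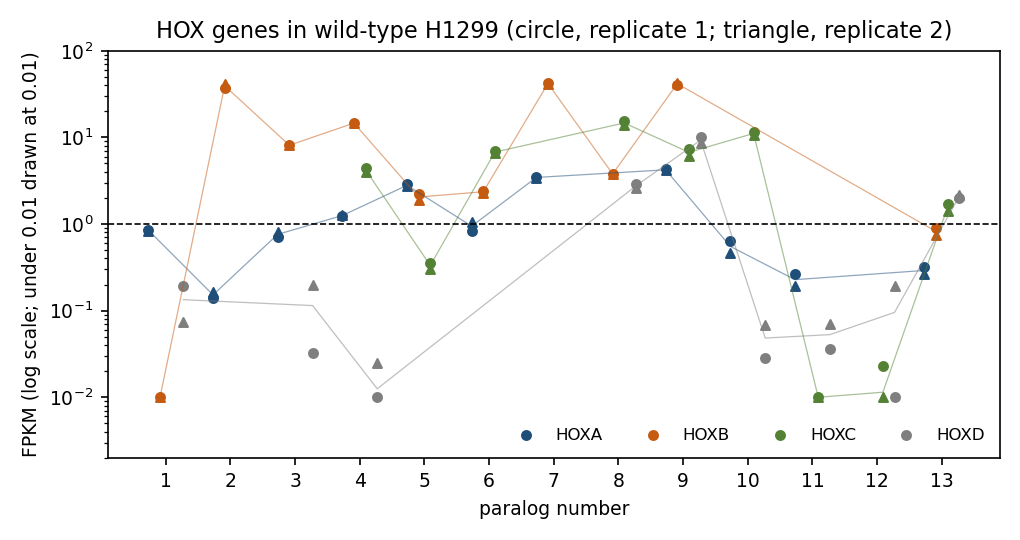
FPKM of each HOX gene (vertical axis, log scale, values under 0.01 drawn at 0.01) by paralog number (horizontal axis), coloured by cluster, with replicate 1 as circles and replicate 2 as triangles. HOXB2, HOXB7 and HOXB9 lie near 40 FPKM, HOXC genes 8 to 10 lie above 5 FPKM, and HOXD9 stands above its neighbours.

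Receptor tyrosine kinases were mostly low, with a few strong members. Of 58, 18 (31.0%) were detected, beside 52.9% of all protein-coding genes, and the list median was 0.182 FPKM. After AXL, the ephrin receptor EPHA2 stood at 75.6 and 80.2 FPKM and EPHB4 at 20.6 and 21.9 FPKM. MET, the receptor of hepatocyte growth factor, stood at 13.7 and 15.7 FPKM. EGFR stood at 7.77 and 8.78 FPKM and ERBB2 at 5.55 and 5.82 FPKM. The 3 members of the AXL family were all detected, since MERTK stood at 6.01 and 6.57 FPKM and TYRO3 at 4.45 and 4.68 FPKM.

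Of 48 nuclear receptors, 24 (50%) were detected, near the 52.9% of all protein-coding genes, with a median of 0.989 FPKM. Orphan receptors led: NR2F6 stood at 37.9 and 39.5 FPKM and ESRRA, a regulator of mitochondrial genes, at 23.7 and 24.0 FPKM. RXRB, a common dimer partner, stood at 20.5 and 20.2 FPKM. The estrogen receptor gene ESR1 had 6 and 8 counts, and the progesterone receptor gene PGR had 3 and 0.

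Among 35 drivers and suppressors of lung cancer, 27 (77.1%) were detected, beside 52.9% of all protein-coding genes. The cyclin-dependent kinase inhibitor genes CDKN2A (37.8 and 36.6 FPKM) and CDKN2B (12.7 and 13.3 FPKM) and their neighbour MTAP (3.27 and 3.37 FPKM), a block often deleted in carcinomas, were all detected. CCND1 (77.1 and 85.0 FPKM) and CDK4 (45.2 and 48.2 FPKM), which drive entry into the cell cycle, were high. NRAS stood at 29.2 and 29.7 FPKM, and MYCN had 0 counts.

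The SWI/SNF complexes remodel nucleosomes with either SMARCA4 or SMARCA2 as the motor. Of 28 subunit genes, 24 (85.7%) were detected, beside 52.9% of all protein-coding genes, and the list median was 7.38 FPKM. The core subunits SMARCC1 (23.1 and 26.5 FPKM), SMARCD1 (24.4 and 25.3 FPKM) and SMARCB1 (10.0 and 9.87 FPKM) were well above that or near it. The motors were lower, at 2.51 and 2.57 FPKM for SMARCA4 and 0.983 and 0.926 FPKM for SMARCA2. In counts SMARCA4 had 1036 and 1105 and SMARCA2 479 and 469, against 3290 and 3533 for SMARCD1 and 4334 and 4444 for SMARCB1. The part of gene length in the FPKM difference was not tested. SMARCE1, named after its value was seen, stood at only 0.202 and 0.226 FPKM. It shares 19.8% of its exonic bases with AC073508.2, which had 0 counts, and the part of that overlap in its level was not tested.

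Cancer testis antigens, which are restricted to germ cells in healthy tissue, split into strongly expressed and silent genes. Of 43 found in the table, 17 (39.5%) were detected and 18 had 0 counts. Over all protein-coding genes 52.9% were detected and 19.3% had 0 counts. MAGEA4 stood at 222 and 208 FPKM, PRAME at 60.1 and 58.1 FPKM and MAGEA10 at 26.9 and 26.4 FPKM. GAGE2A (253 and 225 FPKM), MAGEA3 (59.2 and 55.6 FPKM) and MAGEA6 (46.6 and 48.2 FPKM) belong to families of near-identical copies, so the split among copies is uncertain. The SSX genes SSX1, SSX2 and SSX4, MAGEC1 and MAGEC2 had 0 counts, as did MAGEA11.

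Pluripotency factors were mostly below the detection level. Of 17, 3 (17.6%) were detected, beside 52.9% of all protein-coding genes. They were KLF4 (17.7 and 19.5 FPKM), LIN28B (11.5 and 11.8 FPKM), an oncofetal repressor of let-7 microRNAs, and DPPA2 (2.65 and 2.79 FPKM). The number rested on the threshold, with 7 at a mean of at least 1 TPM and 8 at 10 counts in both libraries. POU5F1 stood at 0.145 and 0.139 FPKM and SOX2 at 0.425 and 0.351 FPKM, while NANOG, DPPA4 and ZFP42 had 0 counts. DPPA2 was thus transcribed without its partner DPPA4.

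Imprinted genes, which are read from 1 parental copy, were detected in 9 of 25 cases (36%), beside 52.9% of all protein-coding genes. GNAS stood at 102 and 100.2 FPKM, the placental growth restrainer PHLDA2 at 55.6 and 58.1 FPKM and the retrotransposon-derived PEG10 at 51.0 and 53.8 FPKM. H19 and IGF2 had 0 counts in replicate 1 and 1 count each in replicate 2. GRB10, an adaptor that dampens insulin signalling, had 0 counts, as did DLK1 and SNRPN.

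Antigen presentation was split by class. Of 13 HLA class I genes, 10 (76.9%) were detected, beside 52.9% of all protein-coding genes. HLA-B (69.2 and 66.9 FPKM) and HLA-E (63.8 and 65.9 FPKM) were close, and B2M, the shared light chain, stood at 42.8 and 41.8 FPKM. None of 11 class II genes was detected, and HLA-DRA had 0 counts. The alleles of these genes differ between individuals, and reads that map poorly to the reference were not assessed.

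None of 21 interferon genes was detected, and 17 had 0 counts, IFNB1 among them. Of 20 listed genes of nucleic acid sensing and related functions, 10 (50%) were detected, near the 52.9% of all protein-coding genes. The DNA sensor CGAS stood at 8.54 and 8.77 FPKM and its adaptor STING1 at 14.7 and 15.4 FPKM. MAVS, the adaptor for RNA sensing, stood at 9.10 and 10.5 FPKM. AIM2, ZBP1 and the toll-like receptors TLR7, TLR8 and TLR9 had 0 counts, as did TREX1. Of these 6 genes, 2 share at least 50% of their exonic bases with other genes, and their levels are uncertain. All exonic bases of TREX1 (100%) are shared with ATRIP (3.55 and 3.58 FPKM), so its 0 does not show that it is silent. Whether reads on shared bases were dropped in counting was not tested.

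Among 27 glycolytic isozymes 17 (63.0%) were detected, beside 52.9% of all protein-coding genes. The ubiquitous forms were highest: ENO1 stood at 546 and 544 FPKM, TPI1 at 262 and 256 FPKM, PKM at 203 and 205 FPKM and LDHA at 76.4 and 75.8 FPKM. The sperm forms GAPDHS (3 and 2 counts) and PGK2 (0 counts) were at or near 0, whereas other tissue forms were detected, ENO2 among them. ALDOA, named after its value was seen, stood at only 2.40 and 2.73 FPKM; 53.5% of its exonic bases are shared with the overlapping gene AC093512.2 (0.782 and 0.937 FPKM), and its level is uncertain.

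Of 25 immediate early genes, 22 (88%) were detected, with a median of 32.4 FPKM, beside 52.9% of all protein-coding genes. CCN1, a matricellular target of YAP, stood at 326 and 315 FPKM, CCN2 at 61.3 and 65.0 FPKM and JUN at 62.3 and 65.5 FPKM. Of 19 heat shock genes, 16 (84.2%) were detected. HSP90AB1 stood at 994 and 1003 FPKM and HSPA5, the chaperone of the endoplasmic reticulum, at 272 and 270 FPKM. The stress-inducible HSPA6 had 3 and 5 counts and CRYAB 0 counts.

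A minority of the silent genes lay in long runs. With protein-coding genes in chromosome order and chromosome Y left out, 33 runs of 10 or more neighbours with 0 counts in both libraries held 630 of 3792 such genes. The 3792 genes formed 2044 runs in all, counting single genes, so most stood alone or in short runs. The longest had 66 genes and spanned chr11:48216810-57237314, from OR4B1 to APLNR; 57 of them were olfactory receptors. It was bounded by PTPRJ at 2.5 FPKM and TNKS1BP1 at 13.8 FPKM. On chromosome 1, a run of 33 genes from KPRP to S100A7 (chr1:152759561-153460701) held 7 of the 18 late cornified envelope genes of the epidermis. Keratin-associated proteins of the hair shaft made up all 26 genes of a run on chromosome 21 from KRTAP13-3 to KRTAP19-8. A further 23 of them were in a run of 25 genes on chromosome 17 from KRTAP4-7 to KRT33B. A run of 26 genes on chromosome 4 from CPZ to DRD5 held 20 deubiquitinase genes of the USP17-like family, directly next to WDR1 at 45.6 FPKM. Many genes of these runs have near-identical copies, and the part of reads that map to several places in their 0 counts was not tested.

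The share of protein-coding genes detected ranged over chromosomes 1 to 22 and X, with Y and the mitochondrial genome left out, from 40.3% on chromosome 21 and 42.0% on X to 58.4% on chromosome 14. Chromosome 11, which holds the longest silent run, had 46.4%.

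Promoter sequence ran parallel to level. The promoter of each gene, from 250 bases before to 50 after its first listed start, was taken from RefSeq (GRCh38.p14) for 14716 of 18078 protein-coding genes (81.4%); genes on chromosomes 8, Y and MT and genes sharing at least 50% of their exonic bases were left out. The following 4 promoters show the contrast: EEF1A1 is the highest nuclear gene, AXL is a highly expressed gene with few CpGs, SFTPB is a silent lung gene, and GRB10 is a silent gene with a CpG-rich promoter. Each is printed 5′ to 3′ on the gene's strand, with every CG in capitals. The regions are chr6:73520983-73521282 (minus strand), chr19:41218973-41219272 (plus strand), chr2:85668692-85668991 (minus strand) and chr7:50793404-50793703 (minus strand).
EEF1A1: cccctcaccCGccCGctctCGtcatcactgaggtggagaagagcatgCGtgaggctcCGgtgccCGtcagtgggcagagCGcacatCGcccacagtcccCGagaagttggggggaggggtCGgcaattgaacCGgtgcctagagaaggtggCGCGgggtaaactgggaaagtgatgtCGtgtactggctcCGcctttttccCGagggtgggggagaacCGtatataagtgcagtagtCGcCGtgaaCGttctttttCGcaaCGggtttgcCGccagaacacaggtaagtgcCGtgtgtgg
AXL: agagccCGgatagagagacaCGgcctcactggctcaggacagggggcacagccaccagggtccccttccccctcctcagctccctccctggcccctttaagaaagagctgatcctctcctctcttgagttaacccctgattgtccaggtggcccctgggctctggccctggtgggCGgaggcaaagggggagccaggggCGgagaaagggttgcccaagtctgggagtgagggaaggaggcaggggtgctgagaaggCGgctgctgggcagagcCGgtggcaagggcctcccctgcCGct
SFTPB: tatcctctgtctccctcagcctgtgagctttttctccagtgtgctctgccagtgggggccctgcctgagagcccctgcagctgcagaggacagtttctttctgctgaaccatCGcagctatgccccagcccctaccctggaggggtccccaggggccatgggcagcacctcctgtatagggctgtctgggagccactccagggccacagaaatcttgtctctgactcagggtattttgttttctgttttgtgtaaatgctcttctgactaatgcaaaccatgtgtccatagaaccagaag
GRB10: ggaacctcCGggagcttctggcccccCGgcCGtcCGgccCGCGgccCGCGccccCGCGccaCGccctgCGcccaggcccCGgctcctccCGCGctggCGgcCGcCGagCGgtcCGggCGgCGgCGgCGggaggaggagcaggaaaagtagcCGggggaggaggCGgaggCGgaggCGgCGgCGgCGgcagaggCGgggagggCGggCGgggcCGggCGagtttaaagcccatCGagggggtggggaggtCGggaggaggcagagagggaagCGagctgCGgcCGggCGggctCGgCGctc

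The EEF1A1 promoter held 24 CG dinucleotides, an observed over expected CpG ratio of 0.891. That ratio divides the CG count by the count that the C and G content would give. The AXL promoter held 7 CGs (ratio 0.216) beside a level of 216 FPKM. The SFTPB promoter held 1 CG (ratio 0.0444) and the GRB10 promoter 44 (ratio 0.932), and both genes were at 0 counts. GRB10 has 5 RefSeq starts and AXL and SFTPB have 2 each, and only the first of each is shown. None of the exonic bases of GRB10 is shared with another gene. The upper limit that 0 counts allow for GRB10 was 0.00573 FPKM.

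Over all 14716 promoters, 66.8% had a CpG ratio of at least 0.6. The median ratio was 0.26 (quartiles 0.13 and 0.518) for genes with 0 counts and 0.412 for genes above 0 but under 0.1 FPKM. It was 0.686 from 0.1 to 1 FPKM, 0.847 from 1 to 10 FPKM, 0.871 from 10 to 100 FPKM and 0.898 (quartiles 0.778 and 0.98) at 100 FPKM or more. Most of the climb lay below 1 FPKM, and the 3 classes above it overlapped widely. Of the genes with 0 counts, 486 of 2371 (20.5%) still had a ratio of at least 0.6. Among the listed genes, named here after their values were seen, SLC34A2, GRP and UTF1 had 0 counts with ratios of 1.02, 0.882 and 1.02. Conversely MAGEA4 and RPL6 were expressed at 215 and 315 FPKM with ratios of 0.354 and 0.17. All these ratios are of the first listed start. Whether that start was the one used in these cells was not tested, so the ratio of a single gene is uncertain.

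The TATA box was scored as the letters TATAAA on the gene's strand, starting and ending between 40 and 20 bases before the start. Only this exact match was counted, and it was found in 3.68% of all promoters. The share was 10.4% for genes with 0 counts, 1.20% from 1 to 10 FPKM, 1.42% from 10 to 100 FPKM and 6.61% (17 of 257) at 100 FPKM or more. It was therefore highest at both ends of the range of levels. None of the 4 promoters printed above held these letters in that window. The EEF1A1 promoter does hold the close variant tatataag before its start, which the exact match leaves out. The shares are therefore of the exact letters and not of all TATA boxes. Genes are not independent replicates, and no test was made of these shares.

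**Figure D4:**
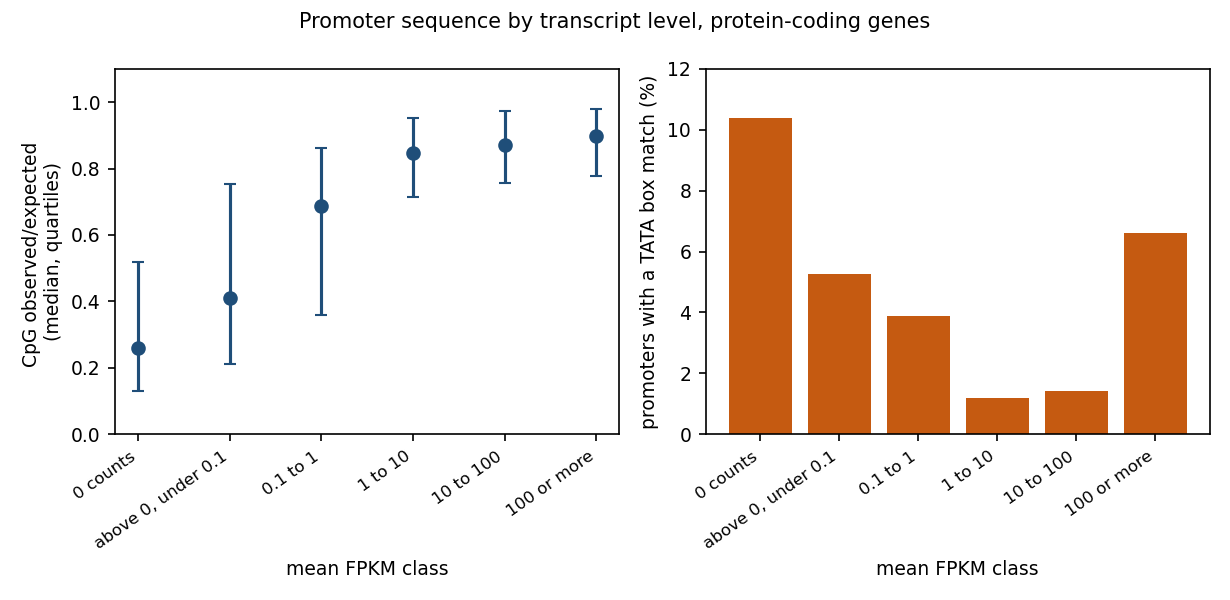
Left, median CpG observed over expected ratio with quartiles as bars (vertical axis), and right, percent of promoters with TATAAA in the window (vertical axis), for protein-coding genes by class of mean FPKM (horizontal axis). The CpG median rises from 0.26 at 0 counts to 0.847 in the class from 1 to 10 FPKM and then levels off, while TATAAA is most frequent in the lowest and the highest class.

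Genes that share most of their exonic bases with other genes were rarely detected. Of 525 protein-coding genes that share at least 90% of their exonic bases with another gene, 1 was detected and 403 were at 0 counts. That gene was NUDT3, at 1.49 and 1.59 FPKM. Of 11097 genes with no shared base, 48.6% were detected, of 4820 with up to 10% shared 66.9%, and of 2901 with 10 to 50% shared 62.7%. The share fell to 20.9% of 608 genes with 50 to 90% shared, so the low detection lay above 50%. A 0 in a gene that is nearly all shared therefore does not show that it is silent: 549 of the 3853 protein-coding genes at 0 counts share at least 50% of their exonic bases.

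The libraries differed little. The common biological coefficient of variation was 0.0462 over 12616 genes, estimated with edgeR from the 2 libraries alone. The median fold between the libraries was 1.06 over all detected genes and 1.05 over protein-coding ones. Of the detected genes, 432 (3.42%) differed by at least 1.5-fold, and 371 of these had under 100 counts. Of them 251 (1.99%) were higher in replicate 1 and 181 (1.43%) in replicate 2. Among protein-coding genes only 35 of 10561 differed that much. Of a list of 18 noncoding RNAs without a poly(A) tail, 2 (11.1%) were detected and 11 had 0 counts. Over all genes 21.5% were detected and 51.7% had 0 counts. Of the 18, though, 6 share at least 50% of their exonic bases with another gene. The signal recognition particle RNA RN7SL2 stood at 74.7 and 43.3 FPKM.

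A small difference between the libraries followed gene length. Among protein-coding genes with at least 5 FPKM, the median log2 ratio of replicate 2 over replicate 1 was -0.03 in the shortest of 5 equal length classes (207 to 2728 bases of exon) and 0.06 in the longest (7460 to 42341 bases). The share of genes higher in replicate 2 was 36.1% and 75.3% in these 2 classes. Over all detected protein-coding genes, 43.5% were higher in replicate 1. Of the 79 ribosomal protein genes 75 were higher in replicate 1, with a median log2 ratio of -0.09, and their median length was 3109 bases. The length class that holds this value (2729 to 3958 bases) had a median log2 ratio of -0.005. Of the 18 detected receptor tyrosine kinases 16 were higher in replicate 2, with a median log2 ratio of 0.10. The median length over the whole list was 6934 bases, and the class that holds it (5374 to 7459 bases) had a median of 0.04. Both list medians thus lay beyond those of the matching length classes. The part of length in these list values was not tested.

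Among protein-coding genes above 5 FPKM, CBS led those higher in replicate 2 and GAGE12J those higher in replicate 1. CBS, an enzyme of the transsulfuration pathway, stood at 5.69 and 9.26 FPKM, a ratio of 1.63 (95% exact interval 1.5 to 1.76). With its copy CBSL added (140 and 18 counts), the ratio was 1.44. COMMD6 stood at 4.89 and 7.65 FPKM, a ratio of 1.57. In the other direction GAGE12J stood at 102 and 69.8 FPKM, a ratio of 0.684. Over the whole GAGE family the summed counts were 6814 and 6192, a ratio of 0.874. Adding the copies thus moved both ratios toward 1 without reaching it. The exact intervals cover counting error only.

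**Figure D5:**
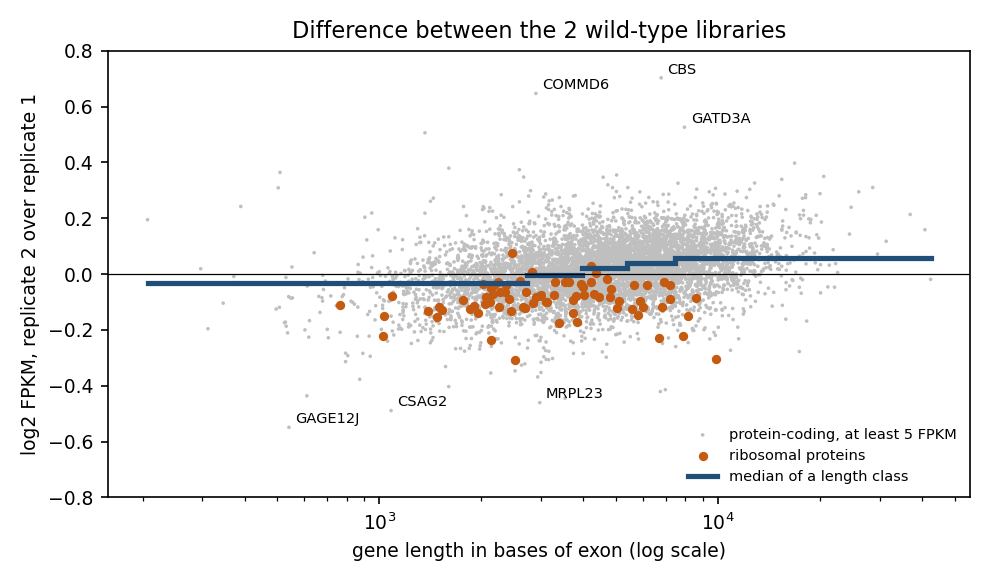
Log2 ratio of FPKM in replicate 2 over replicate 1 (vertical axis) against exon length in bases (horizontal axis, log scale) for protein-coding genes with at least 5 FPKM (grey), with ribosomal protein genes in orange and the median of each of 5 length classes as blue lines. The blue lines step up from -0.03 to 0.06, and nearly all orange points lie below 0.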

How the data were processed

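RNA of 2 wild-type H1299 libraries, made with an Illumina TruSeq kit per the labels, was analysed. Per the submitters' processing notes the aligner was HISAT2 2.0.5 and the genome hg38. Which program counted the reads, how it treated strand and which gene annotation it read are points not given in the sources used here. The table deposited by the authors has 1 column of raw counts for each library, per the file headers, and FPKM values that the authors deposited beside them. These FPKM equal the count divided by the gene length in the table and by an effective library size of 1.02 and 1.01 times the total count. The gene lengths equalled the summed exonic bases of GENCODE 29 for 100% of genes, and that release gave exon sharing (bedtools 2.31.1). Spreadsheet dates in 27 gene symbols were restored. The scale of TPM was computed here.

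Libraries were grouped by the genotype label. With 1 group no test between groups was made. Mean FPKM of at least 1 meant detected. The spread was estimated from counts with edgeR 4.0.16 (R 4.3.3, TMM, intercept only), and ratios of counts carry exact Clopper-Pearson 95% intervals; both steps were tested on simulated data. The upper limit for 0 counts was 3 counts over both libraries. Total counts of 25808423 and 27043491 set the precision.

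The members and gene lists were chosen with earlier results of these data known, so lists are described by counts and medians only. Named were the 20 highest protein-coding genes and up to 5 of each other type; of each list up to 8 of the highest members, up to 8 at 0 counts or under 0.1 FPKM and the first 6 members; the 6 protein-coding genes highest in each library against the other above 5 FPKM; TTC28; and the ends of the 10 longest silent runs. Transcription factors by family, gene families, genes beside silent runs, genes marked so in the text, and FN1, COL1A1, FOXA2, PRSS8, HBB, HBA2, MERTK, TYRO3, PGR and the SSX genes were named after their values were seen. Of 776 list entries 775 were found in the table. Alternative thresholds, scales and left-out libraries were tried. TTC28-targeted libraries were not used.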

Additional observations from a re-analysis of the deposited data

How the results depend on the processing

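Counts of detected genes followed the threshold. All genes detected numbered 20841 at a mean of at least 0.1 FPKM and 7169 at 5 FPKM, and protein-coding genes 6695 at 5 FPKM. At a mean of at least 1 TPM, a lower bar than 1 FPKM, they numbered 16756 over all genes and 12113 over protein-coding ones. The number of genes that make up 50% of summed FPKM was 714 without mitochondrial genes and 877 on raw counts. The share of the 10 highest genes was 6.81% without mitochondrial genes, 7.83% on raw counts and 19.9% for protein-coding genes only, and that of the 100 highest was 23.9% without mitochondrial genes and 22.5% on raw counts. Genes at least 1.5-fold apart numbered 35 at 5 FPKM, 4253 at 0.1 FPKM and 197 with a pseudocount of 1; at least 2-fold apart were 169, and 10, 2694 and 71 under the same settings. The median promoter CpG ratio was 0.25 for genes with 0 counts without X and Y, and 0.878 at 100 or more on the TPM scale. The cause of these differences was not tested beyond the change of setting itself. Of 31 lists, 10 changed their count of detected members by over 1.5 times at 5 FPKM, 12 at 0.1 FPKM, 8 at 1 TPM and 14 at 10 counts in both libraries; none did so with either library left out. Without either library, protein-coding genes at 0 counts numbered 4420 and 4451. The settings that left out genes with at least 50% shared exonic bases, and averaged promoters over all starts of a gene, were chosen after seeing the data and kept every summary they were run on within 1.5 times or the spread of its value. No paired analysis was possible because only 1 group was used and no test compares groups. Depth limits what 0 counts show: levels under 3 counts over both libraries cannot be told from 0.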

Other observations

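Large gene families were read as well, chosen after their values were seen. Of 386 olfactory receptor genes, 2 were detected, OR2W3 at 1.96 FPKM and OR3A2 at 1.62 FPKM, and 340 had 0 counts. Of 94 keratin-associated proteins, 88 had 0 counts and 1, KRTAP2-3, was detected at 4.90 FPKM. All 18 late cornified envelope genes had 0 counts, and 37 of 39 beta-defensins did. Of 26 USP17-like deubiquitinase genes, 25 had 0 counts. Housekeeping complexes were detected nearly in full, with 35 of 39 proteasome genes (median 23.1 FPKM) and 8 of 10 chaperonin genes (median 104 FPKM). Of 514 genes named ZNF, which encode DNA-binding zinc fingers, 325 (63.2%) were detected, and of 374 solute carriers, which move ions and nutrients across membranes, 184 (49.2%), beside 52.9% of all protein-coding genes. Of 71 clustered histone genes, whose messengers end in a stem-loop without a poly(A) tail, 30 (42.3%) were detected, the highest at 155 FPKM.

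Some genes with near-identical copies differed by large factors between the libraries, and these were also chosen after their values were seen. U2AF1L5, a copy of the splicing factor gene U2AF1, had 269 counts in replicate 1 and 2737 in replicate 2, a ratio of 9.79 after scaling. U2AF1 itself had 174 and 10 counts, and the sum of both had a ratio of 5.96 (95% exact interval 5.39 to 6.61). NXF2 had 5 and 197 counts, a ratio of 37.9, while its copy NXF2B had 0 counts in both. SERF1B had 408 and 116 counts, and with SERF1A the ratio was 0.294. For GPR89B the ratio was 2.04, and 1.59 with GPR89A added. The levels of these genes in this line are uncertain, and how multiply mapped reads were counted is a step not given in the sources used here.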
